A study of Mus musculus with 12 samples.

Results

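The livers of male mice lacking the mitochondrial carrier Slc25a34 in their hepatocytes were compared between a fast-food diet (FFD) and chow. The comparison used 6 of the 12 libraries of the series, 3 labelled Slc-HKO on FFD (HKO FFD) and 3 labelled Slc-HKO on chow (HKO chow), and every gene of the raw count table. All 6 mice carried an Slc25a34 allele with loxP sites in the promoter and in the first intron. At 2 months of age they all received AAV8-TBG-Cre, an adeno-associated virus in which the thyroxine binding globulin promoter, active in hepatocytes, drives Cre recombinase. According to the labels the virus reaches over 95% of hepatocytes, and the gene stays intact in the other cells of the liver. Every mouse then ate chow for 1 month, followed by 2 months of either FFD or chow, and had been without food for 16 h when the whole liver was taken. The composition of the FFD and the strain of the mice are not given in the sources used here. The other 6 libraries came from floxed mice given AAV8-TBG-GFP in place of Cre (WT control, 3 on each diet). They entered the estimate of the spread between mice, but neither side of the diet comparison in HKO livers, and their own diet effect is set beside it at the end.

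The liver balances the cholesterol, fat and sugar of the diet against its own synthesis. Cholesterol in the membranes of the endoplasmic reticulum (ER) holds back SREBP2, the factor that turns on the genes of sterol synthesis and uptake, while oxidised sterols activate the receptor LXR, which turns on sterol export and the fat synthesis factor SREBP1c. Fatty acids are stored as triglyceride in lipid droplets or oxidised in mitochondria and peroxisomes under control of the fatty acid sensor PPARalpha, a receptor best known from the fasted liver.

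The 6 HKO libraries held between 12842187 and 24332663 reads assigned to genes. The first principal component of their log2 levels, with 46.9% of the variance, had all 3 FFD libraries on one side and all 3 chow libraries on the other. The second, with 21.7%, set HKO chow replicate 2 apart from the other 5 libraries. Some genes of other tissues also had most of their chow reads in HKO chow replicate 2. The adipocyte hormone gene Adipoq had 0, 60 and 0 counts in HKO chow replicates 1, 2 and 3, and the droplet coat gene Plin1, an adipocyte marker, 0, 55 and 3. The mucin gene Muc6, known from gallbladder and stomach, had 1.08, 10.2 and 0.39 CPM (the count scaled to the size of the library), the smooth muscle actin gene Acta2 2.69, 33.7 and 1.43 CPM and the bile duct keratin gene Krt19 0.77, 6.64 and 0.65 CPM in the same order. Not all such genes were highest there. The summed level of 15 gallbladder and gut genes was 1542, 1310 and 1393 CPM in the same order, and that of 18 pancreas genes 10.7, 9.47 and 10.5 CPM. Each result named below was also computed without HKO chow replicate 2. A mouse left out is named by its diet and replicate number, so that chow mouse 2 is HKO chow replicate 2. Slc25a34 (ENSMUSG00000040740, on the minus strand of chromosome 4 from 141618824 to 141623821 in mm10) was low on both diets, with 4, 13 and 9 counts in the HKO chow libraries and 4, 4 and 18 in the HKO FFD libraries, so diet did not separate them (log2 fold change −0.31, SE 0.57, adjusted p = 0.77). Over the 6 mice the exact permutation p of the log2 CPM was 0.6 (two-sided), and 3 mice against 3 cannot give less than 0.1. The summed level of 23 genes of hepatocyte identity was 67190, 67440 and 74090 CPM on chow and 60940, 68820 and 67960 CPM on FFD. The codes in the column headers run in one range for all FFD libraries and in another for all chow libraries. What they mark is not stated, so its effect and that of diet cannot be told apart.

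Diet moved many genes in the HKO liver, mostly by small amounts. Of 14277 genes tested, 1065 were higher on FFD (7.46%) and 874 lower (6.12%), 13.6% in all, by edgeR's quasi-likelihood test at a Benjamini-Hochberg adjusted p under 0.05. Only 283 of the higher and 196 of the lower genes differed at least 2-fold, so 75.3% of the called genes changed less than that. The median log2 fold change over all genes tested was −0.011, the level against which the medians of gene groups are read. The groups of 3 libraries did not overlap in 33.6% of all genes tested, so a lack of overlap alone is common here. How many genes were called depended on the libraries: 967 passed the threshold without HKO FFD replicate 2, 1064 without HKO chow replicate 3, 1144 without HKO FFD replicate 1 and 1261 without HKO chow replicate 1, against 1848 without the outlying HKO chow replicate 2. The labels do not say whether the mice of a group shared a cage or a day, so p-values measure the spread between these mice. In whole liver, fewer cells of a type and less RNA per cell cannot be told apart.

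**Figure D1:**
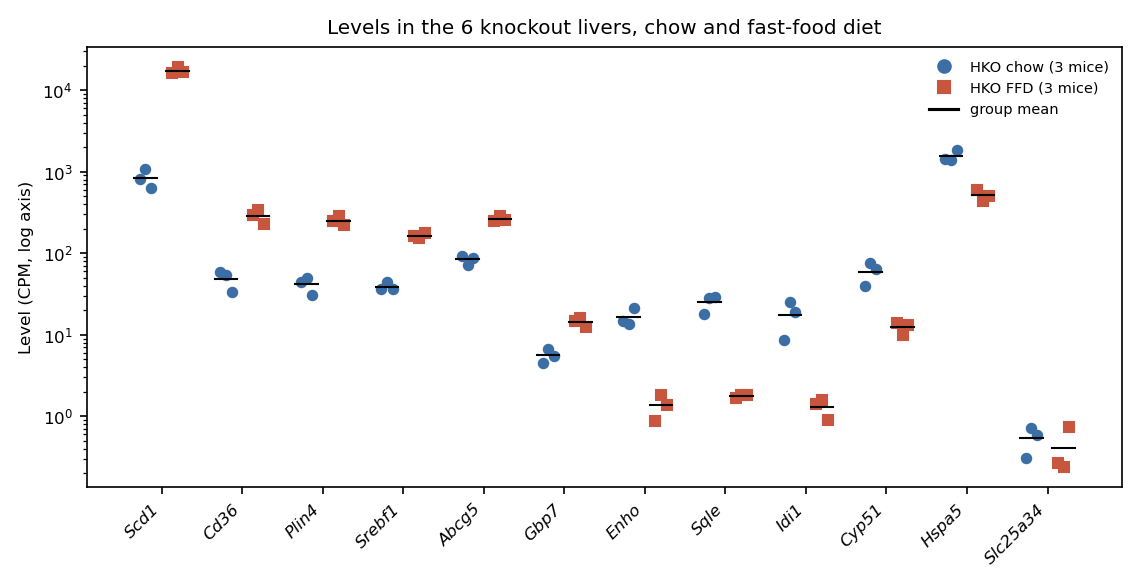
Level of 12 genes in each of the 6 knockout livers, in CPM on a logarithmic axis, with circles for HKO chow, squares for HKO FFD and a line at each group's mean (3 mice each). In 11 of the genes the FFD and chow livers do not overlap, and in the targeted gene Slc25a34 they do.

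Scd1 rose on FFD and Enho fell. Scd1, the stearoyl-CoA desaturase that makes monounsaturated fatty acids (ENSMUSG00000037071, on the minus strand of chromosome 19 from 44394451 to 44407709 in mm10), had 815, 1086 and 638 CPM in the 3 chow livers and 16155, 19237 and 16853 CPM in the 3 FFD livers. Every FFD liver was thus far above every chow liver, 20.6-fold by the fit (log2 fold change 4.36, SE 0.29, adjusted p = 1.3e-05). Enho, which encodes the secreted peptide adropin (ENSMUSG00000028445, on the minus strand of chromosome 4 from 41638144 to 41640324 in mm10), had 14.7, 13.5 and 21.2 CPM on chow and 0.875, 1.84 and 1.38 CPM on FFD. It fell 11.9-fold, again with no overlap (log2 fold change −3.57, SE 0.25, adjusted p = 1.3e-05). An annotated gene overlaps Enho on the other strand, and whether the counting used strand is not stated, so some of its reads may belong there. The same holds of Abcg5, Abcg8, Acot3, Acot4, Atf5, Chpt1, Cish, Cyp21a1, Cyp51, Ddit3, E2f8, Fitm1, Fitm2, Hmgcs1, Hsp90b1, Idi1, Irf7, Lss, Manf, Meg3, Mlxipl, Mogat1, Pdia6, Plin4, Pltp, Ppp2r2d, Slc25a10, Slc25a23, Srebf1, Themis and Tkfc, all described below. The calls of Scd1 and Enho held under all the alternatives tried, including without HKO chow replicate 2.

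Most genes of sterol synthesis fell. Of 21 genes of the pathway, 14 were lower on FFD and 0 higher, with a median log2 fold change of −0.95. The count was 13 or 14 with any of the 6 mice left out. The squalene epoxidase gene Sqle, which makes the first oxygenated intermediate, had 17.9, 28.5 and 29.1 CPM on chow and 1.68, 1.84 and 1.83 CPM on FFD. This is a 14-fold fall with no overlap and almost no spread on FFD (log2 fold change −3.81, SE 0.36, adjusted p = 0.00014). The isopentenyl diphosphate isomerase gene Idi1 fell 13.9-fold, from 8.7, 24.9 and 19.2 CPM to 1.41, 1.6 and 0.895 CPM. The lanosterol demethylase gene Cyp51 went from 40.1, 75.7 and 63.2 CPM to 13.9, 9.81 and 13.3 CPM, 4.83-fold lower. In each of these genes the chow livers varied more than the FFD livers, and HKO chow replicate 1 was the lowest of the 3. Smaller falls were seen for Hsd17b7 at −1.28 (SE 0.13) and the lanosterol synthase gene Lss at −1.10 (SE 0.12) on the log2 scale. The farnesyl diphosphate synthase gene Fdps, singled out after its values were seen, stood at a log2 fold change of −2.65 (SE 0.51). The other 7 members did not pass.

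Some genes of sterol uptake and sensing fell as well. Of 14 genes 5 fell and 1 rose, with a median log2 fold change of −0.16. Srebf2, the gene of SREBP2 itself, had 63.4, 64.2 and 71.8 CPM on chow and 31.8, 42.3 and 41 CPM on FFD. The groups did not overlap and the fall was 1.73-fold (log2 fold change −0.79, SE 0.13, adjusted p = 0.0022). Insig1, which anchors the SREBP complex in the ER, stood at a log2 fold change of −1.13 (SE 0.24), and the sterol carrier gene Stard4 at −0.98 (SE 0.22). The member that rose was Scarb1, the HDL receptor, at a log2 fold change of 0.29 (SE 0.07), a gene singled out after its value was seen. Its call ended without chow mouse 2, chow mouse 3, FFD mouse 2 or FFD mouse 3 (adjusted p = 0.063, 0.077, 0.085 and 0.074, in that order) and with no filter (adjusted p = 0.054). Without chow mouse 2 the rises of the list numbered 2, and Scarb1 was not among them.

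The promoters of the sterol synthesis and ER stress genes were searched for the letters of sterol and stress elements, since most of these genes fell. The core of the sterol regulatory element, TCACNCCAC on either strand, was found in the 300 bases around the start of 1 of 16 sterol synthesis genes with a promoter in the RefSeq table (build GRCm38.p6), and in 1.24% of all 32851 promoters there. The palindrome TCACGTGA, an E-box that SREBPs can also bind, was in 0 of the 16 and in 0.974% of all promoters. Both motifs begin with TCAC. The 1 match lies at chr13:119690189-119690247 on the plus strand, the strand of its gene Hmgcs1, whose enzyme makes the precursor of mevalonate, and its first base is 137 bases upstream of the start. It is shown because it is the sole match of the list, with the matching letters in capitals.
Hmgcs1: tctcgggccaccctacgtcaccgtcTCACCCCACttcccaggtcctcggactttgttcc
Hmgcs1 had 59.9, 132 and 75.2 CPM on chow and 44.9, 48.2 and 45.4 CPM on FFD, 1.94-fold lower (log2 fold change −0.95, SE 0.21, adjusted p = 0.011). A match of letters is a description of the sequence and was not tested as a binding site.

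Sterol export genes rose. Of 11 LXR and sterol export genes, 7 were higher on FFD and 0 lower (median log2 fold change 0.63). The count was 7 with any single mouse left out too. Abcg5 and Abcg8, the paired subunits of the pump that moves cholesterol into bile, were at 93, 70.9 and 87.6 CPM and 123, 94.4 and 113 CPM on chow. On FFD they reached 247, 286 and 254 CPM and 219.7, 244 and 235 CPM, which is 3.13-fold and 2.12-fold higher, with no overlap. The 2 genes lie back to back on opposite strands. Abca1, which loads cholesterol onto HDL, had 194, 159 and 162 CPM on chow and 372, 384 and 359 CPM on FFD, a 2.17-fold rise (log2 fold change 1.12, SE 0.12, adjusted p = 0.0002). Abcg1 stood at a log2 fold change of 0.85 (SE 0.13) and the phospholipid transfer protein gene Pltp at 0.63 (SE 0.12).

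Fatty acid synthesis was divided. Srebf1, the gene of SREBP1c, had 35.9, 45 and 36.1 CPM on chow and 162, 154 and 176 CPM on FFD. It rose 4.2-fold, with no overlap (log2 fold change 2.07, SE 0.23, adjusted p = 0.00028). Fasn, the fatty acid synthase, went the other way, from 136, 185 and 143 CPM to 97.4, 114 and 109 CPM (log2 fold change −0.54, SE 0.12, adjusted p = 0.0095). In all, 5 of 13 members of the list rose and 2 fell, around a median log2 fold change of 0.05. The rises numbered 3 without chow mouse 3, FFD mouse 2 or FFD mouse 3, and the falls 1 without chow mouse 3, FFD mouse 1 or FFD mouse 2 and 4 without chow mouse 1. The sugar-responsive factor ChREBP, encoded by Mlxipl, rose to a log2 fold change of 0.50 (SE 0.11). Thrsp, a lipogenic cofactor, had 31.9, 18.9 and 12.2 CPM on chow and 60.5, 199 and 38.8 CPM on FFD, high in HKO FFD replicate 2. Its call ended without chow mouse 3 or FFD mouse 2 (adjusted p = 0.067 and 0.06, in that order) and with robust dispersions (adjusted p = 0.053). Of 12 desaturases and elongases, 4 rose and 0 fell, with 2 without chow mouse 1, chow mouse 3, FFD mouse 1 or FFD mouse 3. Fads2, the delta-6 desaturase, rose 1.46-fold, from 347 ± 11.9 CPM to 505 ± 23.9 CPM (mean ± SD, n = 3 each). Fructose and glycolysis genes included 4 lower and 0 higher of 17. Tkfc, which phosphorylates the glyceraldehyde from fructose, had 507, 614 and 565 CPM on chow and 202, 194 and 250.3 CPM on FFD, a 2.61-fold fall.

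Genes of fat storage rose in part. In the droplet list 7 of 20 members were higher and 0 lower, with a median log2 fold change of 0.21. Plin4, a droplet coat protein, had 44.8, 49.1 and 30.9 CPM on chow and 247, 285 and 219.7 CPM on FFD, 6.03-fold higher (log2 fold change 2.59, SE 0.18, adjusted p = 1.3e-05). Cidea, a droplet fusion protein known from brown fat, was barely counted on chow, with 0, 5 and 1 reads, and reached 220, 329 and 96 reads on FFD. It had the largest increase of all named genes, with 14.8, 19.6 and 3.91 CPM on FFD and a log2 fold change of 6.55 (SE 0.94) that rests on these few chow reads. The FIT proteins, which hand triglyceride from the ER to droplets, rose as well, Fitm1 by a log2 fold change of 1.53 (SE 0.20) and Fitm2 by 0.76 (SE 0.09). By contrast the main hepatocyte coat gene Plin2, singled out after its values were seen, had 470.5, 889 and 434 CPM on chow and 571, 524 and 625 CPM on FFD and did not pass (log2 fold change −0.06, SE 0.24). HKO chow replicate 2 had the highest Plin2 of the 6 livers.

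Some genes of fatty acid uptake and esterification also rose. Of 15 uptake and binding genes 5 rose and 0 fell, with 2 without chow mouse 3, FFD mouse 1 or FFD mouse 2. Cd36, the fatty acid translocase, had 58.9, 54.2 and 33.8 CPM on chow and 295, 337 and 227 CPM on FFD. It rose 5.84-fold with no overlap (log2 fold change 2.55, SE 0.20, adjusted p = 4.3e-05). Fabp2, a fatty acid binding protein best known from intestine, rose 2.72-fold, from 61.3 ± 9.69 CPM to 167 ± 12.3 CPM. In the triglyceride synthesis list 4 of 12 rose and 1 fell, a fall not called without any 1 of the mice other than HKO chow replicate 2. Mogat1, a monoacylglycerol acyltransferase, had 0.462, 0.498 and 0.39 CPM on chow and 3.97, 6.24 and 2.52 CPM on FFD, and Gpat4, an acyltransferase of the first step, rose to a log2 fold change of 0.85 (SE 0.09). Dgat2, which makes the final bond, stood at a log2 fold change of 0.56 (SE 0.12). Of 16 genes of lipoprotein assembly 2 rose (0 without chow mouse 2 or FFD mouse 2 and 1 without chow mouse 3, FFD mouse 1 or FFD mouse 3) and 3 fell. Over all genes tested 7.46% were higher and 6.12% lower. Apom, an apolipoprotein of HDL, fell 2.43-fold, from 189.7, 164 and 218 CPM to 83, 65.1 and 87.1 CPM. Of the 17 phospholipid genes 3 rose, led by the choline phosphotransferase gene Chpt1 at a log2 fold change of 0.75 (SE 0.11).

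**Figure D2:**
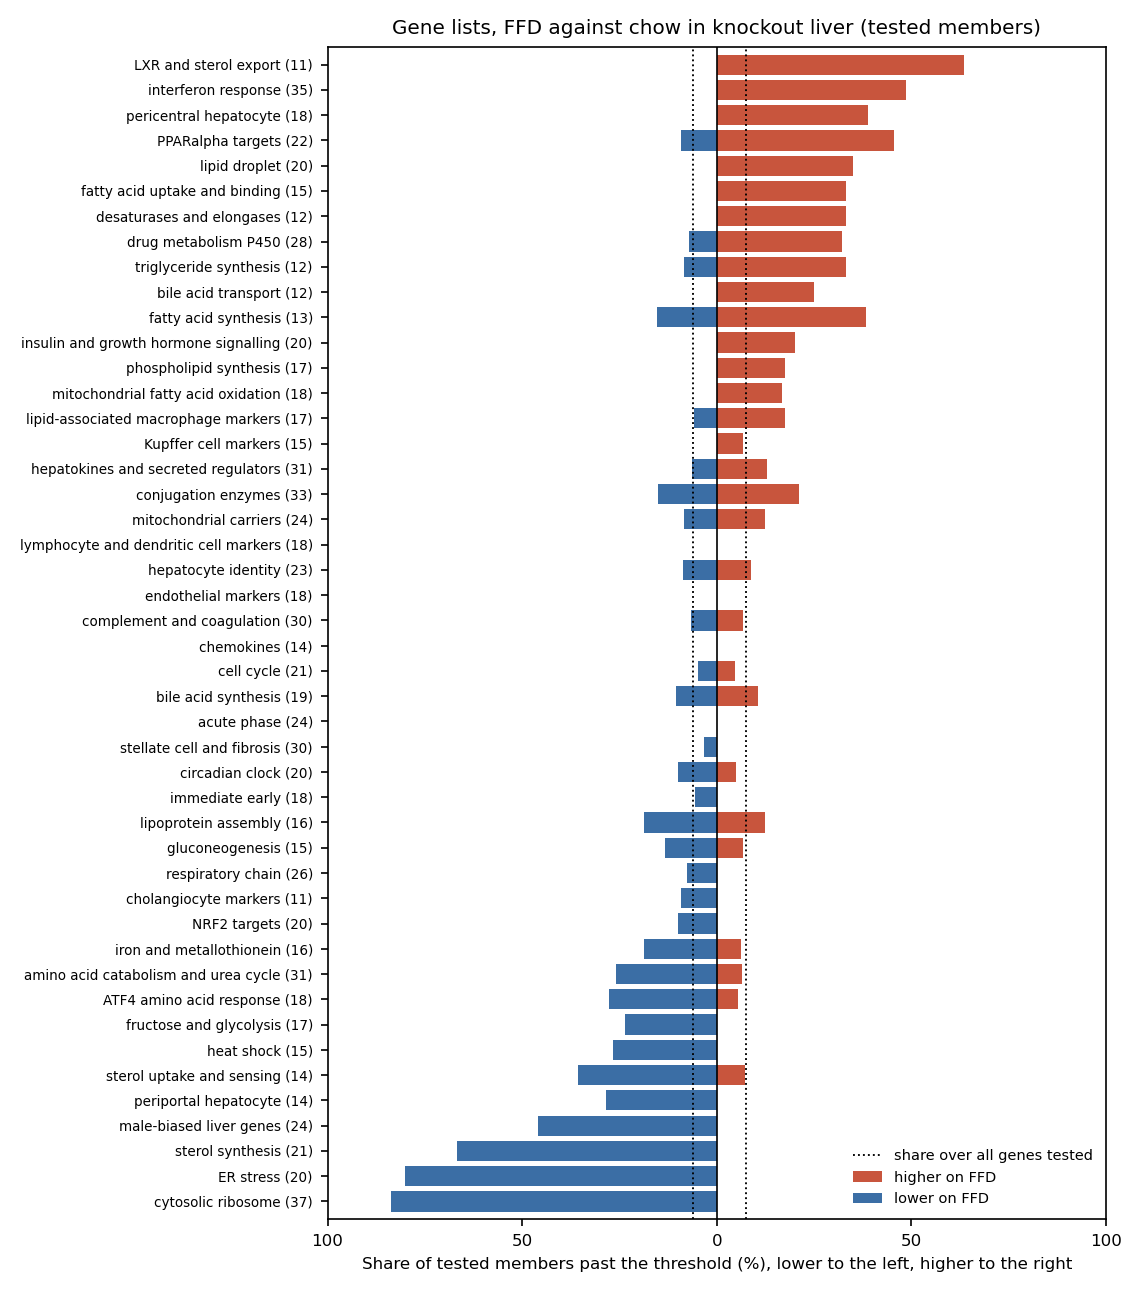
Share of the tested members of each list that passed the threshold, lower on FFD to the left and higher to the right, for the 46 lists with at least 10 tested members (number in parentheses). Dotted lines mark the shares over all genes tested, 6.12% lower and 7.46% higher.

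PPARalpha targets rose in part, led by the acyl-CoA thioesterases. Of 22 targets 10 were higher and 2 lower, with a median log2 fold change of 0.41, and 11 were higher without HKO chow replicate 2. Acot3, a peroxisomal thioesterase, had 6.31, 20.0 and 19.8 CPM on chow and 85.2, 70.7 and 51.8 CPM on FFD. It rose 4.45-fold (log2 fold change 2.15, SE 0.34, adjusted p = 0.0018). Acot2, the mitochondrial form, had 10.1, 25.8 and 12.7 CPM on chow and 47.5, 48.2 and 47 CPM on FFD, 2.9-fold higher, and Acot4 stood at a log2 fold change of 1.05 (SE 0.16). Reads of the near-identical Acot genes can be divided arbitrarily by the counting, so their single values are uncertain. Vnn1, a pantetheinase, rose to a log2 fold change of 1.19 (SE 0.20). The receptor gene Ppara itself, singled out after its values were seen, had 220.4, 230.0 and 208 CPM on chow and 279, 325 and 302 CPM on FFD (log2 fold change 0.46, SE 0.09, adjusted p = 0.0049). The members that fell were the fatty acid hydroxylases Cyp4a31 at a log2 fold change of −1.31 (SE 0.24) and Cyp4a32 at −0.78 (SE 0.16), again close copies of each other. Fgf21, the fasting hormone that is a target of the same receptor, had 0.693, 12.3 and 1.76 CPM on chow and 6.19, 3.09 and 5.21 CPM on FFD. It was high in HKO chow replicate 2 and did not pass (adjusted p = 0.96). Without that library it stood at a log2 fold change of 1.94 (adjusted p = 0.065).

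Most genes of each mitochondrial list did not pass the threshold. The called share was still above the 13.6% of all genes tested in fatty acid oxidation, ketogenesis and the carriers, by few genes each. Of 18 genes of mitochondrial fatty acid oxidation 3 rose and 0 fell, with a median log2 fold change of 0.11. Hadh, the hydroxyacyl-CoA dehydrogenase, had 309, 330.2 and 318 CPM on chow and 516, 564 and 474 CPM on FFD, 1.62-fold higher. Acadm, the medium-chain dehydrogenase, stood at a log2 fold change of 0.46 (SE 0.09), and the gate enzyme Cpt1a, singled out after its value was seen, at 0.24 (SE 0.12), which did not pass. In ketogenesis 1 of 7 rose (2 without chow mouse 2 or FFD mouse 3), and 1 fell, the ketone and lactate exporter gene Slc16a1 at a log2 fold change of −0.73 (SE 0.15). Of 24 mitochondrial carriers, the family of Slc25a34, 3 rose and 2 fell, the falls numbering 0 without chow mouse 1 or chow mouse 3 and 1 without chow mouse 2, FFD mouse 1, FFD mouse 2 or FFD mouse 3. The dicarboxylate carrier gene Slc25a10 rose from 229, 243 and 205 CPM to 338, 386 and 347 CPM (log2 fold change 0.66, SE 0.12, adjusted p = 0.0032), and Slc25a23, an ATP-Mg and phosphate carrier, stood at 0.47 (SE 0.09). Among 26 respiratory chain genes 2 fell and 0 rose, a share of falls near the 6.12% lower over all genes tested. The falls numbered 1 without chow mouse 3, FFD mouse 1 or FFD mouse 3 and 4 without chow mouse 2. The cytochrome c gene Cycs stood at a log2 fold change of −0.43 (SE 0.07).

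ER chaperones and folding enzymes fell together. All 20 ER stress genes had negative log2 fold changes, with a median of −1.02, and 16 passed the threshold. Without HKO FFD replicate 2 the count was 9, and 12 to 16 without any other single mouse. Sdf2l1, a partner of the ER chaperones, had 63, 40.6 and 73.1 CPM on chow and 11, 7.49 and 10.8 CPM on FFD. It fell 6.01-fold (log2 fold change −2.59, SE 0.45, adjusted p = 0.0033). Hyou1, a large ER chaperone, went from 425, 389.6 and 487 CPM to 140.2, 101 and 133 CPM, and Manf, a secreted ER protein, from 149, 133 and 165 CPM to 49.4, 29.5 and 41.2 CPM. These falls were 3.48-fold and 3.72-fold, and in each gene HKO FFD replicate 2 was the lowest liver. Dnajb11 stood at a log2 fold change of −1.14 (SE 0.19) and the disulfide isomerase gene Pdia6 at −1.01 (SE 0.19). Hspa5, the master chaperone BiP, singled out after its values were seen, had 1428, 1393 and 1848 CPM on chow and 595, 434 and 509.9 CPM on FFD, 3.04-fold lower (adjusted p = 0.0065). So was Ddit3, the stress factor CHOP, which fell from 15 ± 2.36 CPM to 5.1 ± 0.161 CPM. Xbp1, the factor that drives many of these genes, stood at a log2 fold change of −0.37 (SE 0.22) and did not pass.

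The ER stress element, CCAAT and CCACG with 9 unspecified bases between them on either strand, was found in the promoters of 8 of the 18 ER stress genes with a RefSeq promoter. It was in 39 of all 32851 promoters there, or 0.119%. The 8 genes were Calr, Canx, Creld2, Derl3, Dnajc3, Hsp90b1, Hspa5 and Pdia6, and 7 of them fell, while Canx, a lectin chaperone, stood at a log2 fold change of −0.32 (SE 0.11 and adjusted p = 0.063). Canx passed by DESeq2 and with the 6 HKO libraries alone (adjusted p = 0.028 and 0.04). The element had been described from genes of this kind, so its presence here is a description and not an independent result. The matches of the 5 genes with the largest falls are printed as examples of what such a promoter looks like, with the 19 matching letters in capitals. Each line reads 5′ to 3′ on the strand of its gene in GRCm38.p6, and a match that begins with CGTGG is the element on the opposite strand. Hsp90b1 holds a match in each orientation.
Derl3 (chr10:75893217-75893285, gene on the plus strand): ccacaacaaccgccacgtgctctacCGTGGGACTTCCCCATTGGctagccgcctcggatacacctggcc
Creld2 (chr15:88819495-88819563, gene on the plus strand): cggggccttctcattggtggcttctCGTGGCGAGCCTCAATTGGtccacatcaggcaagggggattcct
Hspa5 (chr2:34772000-34772068, gene on the plus strand): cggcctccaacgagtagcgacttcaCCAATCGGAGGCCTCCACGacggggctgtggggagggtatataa
Hsp90b1, match farther from the start (chr10:86705613-86705681, gene on the minus strand): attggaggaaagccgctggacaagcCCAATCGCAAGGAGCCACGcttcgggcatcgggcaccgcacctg
Hsp90b1, match nearer the start (chr10:86705508-86705576, gene on the minus strand): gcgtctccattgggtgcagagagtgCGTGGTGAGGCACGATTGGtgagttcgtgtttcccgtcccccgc
Pdia6 (chr12:17266466-17266534, gene on the plus strand): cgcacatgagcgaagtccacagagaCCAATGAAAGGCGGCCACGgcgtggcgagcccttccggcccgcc
The levels behind these sequences fell with no overlap between the groups. Derl3, of the ER degradation machinery, had 10.6, 14.7 and 16.3 CPM on chow and 4.44, 2.67 and 1.59 CPM on FFD, and Creld2, a secreted ER protein, 140.2, 109.7 and 172 CPM and 37, 24.7 and 30.1 CPM. Hsp90b1, the chaperone GRP94, went from 748, 745 and 875 CPM to 426, 367 and 375 CPM and Pdia6 from 262, 225 and 284 CPM to 136, 112 and 133 CPM. The calls of Hspa5 and Pdia6 held with any mouse left out. That of Hsp90b1 ended without FFD mouse 2 (adjusted p = 0.051) and that of Creld2 without FFD mouse 2 (adjusted p = 0.059). That of Derl3 ended without chow mouse 3, FFD mouse 2 or FFD mouse 3 (adjusted p = 0.054, 0.064 and 0.06, in that order), and that of Dnajc3, a co-chaperone at a log2 fold change of −0.55 (SE 0.13), without chow mouse 1, chow mouse 3, FFD mouse 1 or FFD mouse 2 (adjusted p = 0.056, 0.072, 0.054 and 0.075, in that order).

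**Figure D3:**
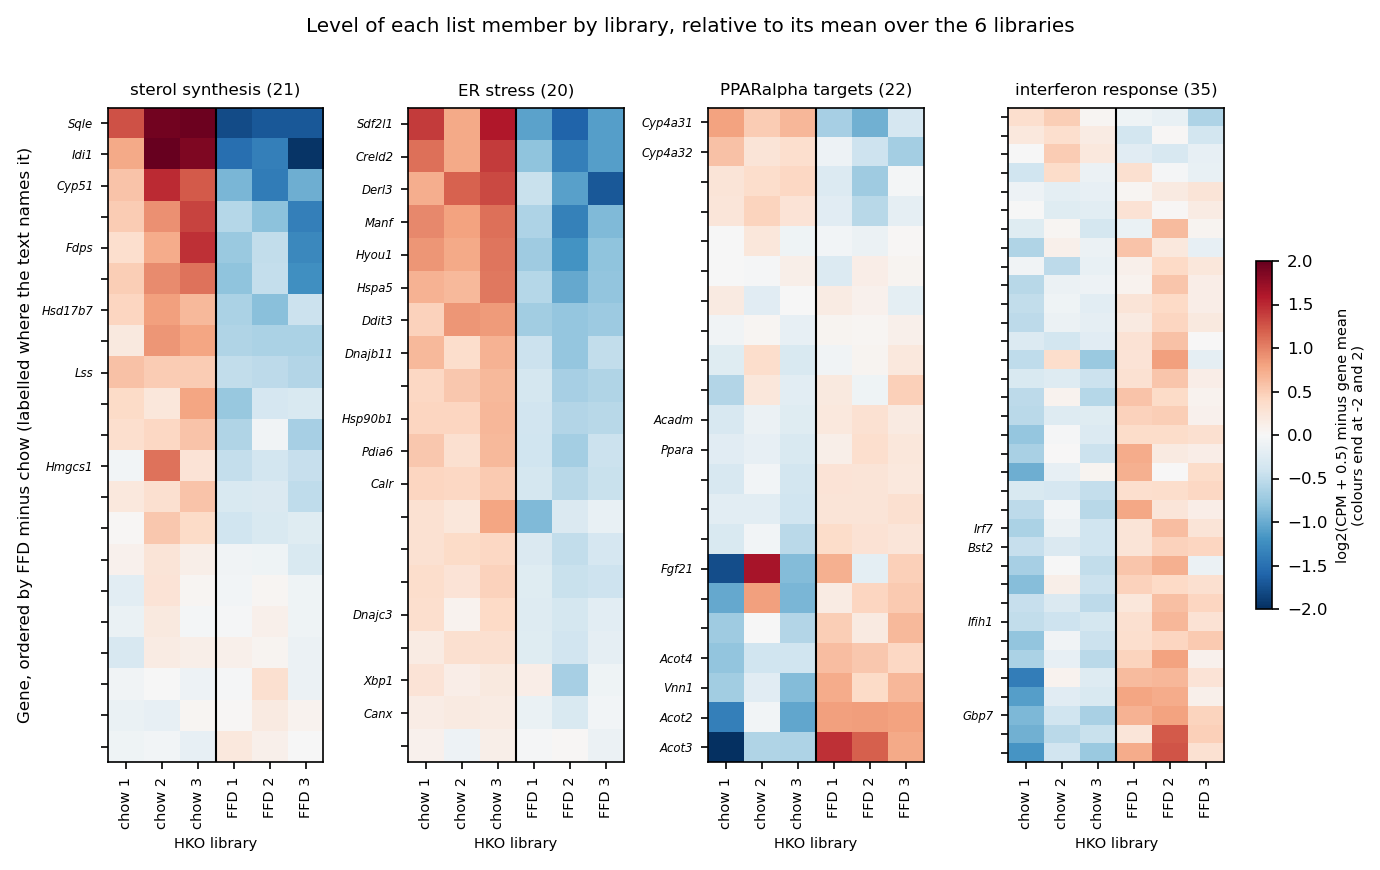
Level of each tested member of 4 lists in each HKO library, as log2(CPM + 0.5) minus the gene's mean over the 6 libraries, red above and blue below the mean, with genes ordered by FFD minus chow and labelled where the text names them. Sterol synthesis and ER stress genes are mostly red in the chow columns and blue in the FFD columns, many PPARalpha targets and most interferon genes are the reverse, and Fgf21 is highest in HKO chow replicate 2.

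Amino acid stress genes and heat shock genes gave fewer calls. Of 18 targets of the amino acid stress factor ATF4, 5 fell and 1 rose. The falls numbered 2 without chow mouse 1 or FFD mouse 1 and 3 without chow mouse 3, FFD mouse 2 or FFD mouse 3, and the rises 0 without chow mouse 1, chow mouse 3 or FFD mouse 1 and 2 without chow mouse 2 or FFD mouse 3. Asns, the asparagine synthetase, had 9.55, 11.6 and 8.91 CPM on chow and 0.269, 0.832 and 0.244 CPM on FFD. It was among the largest falls of the comparison, 22.8-fold (log2 fold change −4.51, SE 0.66, adjusted p = 0.0013). Atf5, a factor of the same response, fell from 389, 539 and 360.1 CPM to 175, 147 and 179.7 CPM, 2.57-fold. Heat shock genes fell in 4 of 15 cases, and in 1 without HKO chow replicate 2, HKO chow replicate 3 or any of the FFD mice. Hspa1b, an inducible HSP70 that cannot be fully told from its copy Hspa1a, had 71.6, 197 and 112 CPM on chow and 29.1, 23.9 and 32.7 CPM on FFD, highest in HKO chow replicate 2. Its call held in that library's absence (adjusted p = 0.0059). Antioxidant targets of NRF2 fell in 2 of 20 cases, with 0 higher and a median log2 fold change of −0.29, and the falls numbered 0 without FFD mouse 1 and 1 without chow mouse 2, chow mouse 3 or FFD mouse 2. Over all genes tested 6.12% were lower.

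Cytosolic ribosomal protein genes fell slightly and together. Of 37 genes 31 were lower and 0 higher, with a median log2 fold change of −0.35. Rplp0, of the ribosomal stalk, had 451, 439 and 464 CPM on chow and 322, 341 and 337 CPM on FFD. The fall was 1.35-fold with no overlap (log2 fold change −0.44, SE 0.07, adjusted p = 0.0016). Rpl10 stood at a log2 fold change of −0.46 (SE 0.08), Rpl27 at −0.44 (SE 0.07) and Rpl8 at −0.41 (SE 0.07). The count moved with the mouse left out. It was 12 without HKO FFD replicate 2, 16 without HKO chow replicate 3, 17 without HKO FFD replicate 1, 18 without HKO chow replicate 1 and 24 without HKO FFD replicate 3, against 29 without HKO chow replicate 2. With the other scaling, relative log expression, it was 31.

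Interferon-induced genes rose by modest amounts. Of 35 interferon genes 17 were higher and 0 lower, with a median log2 fold change of 0.74. DESeq2 called 23 higher and 2 lower, and up to 1 was lower with a mouse left out. Leaving out a mouse gave 9 calls without HKO FFD replicate 2, 10 without HKO chow replicate 1 and 11 without HKO chow replicate 3 or HKO FFD replicate 1, and 21 without HKO chow replicate 2. Gbp7, a guanylate-binding GTPase, had 4.54, 6.64 and 5.53 CPM on chow and 14.7, 15.9 and 12.4 CPM on FFD. It rose 2.55-fold with no overlap (log2 fold change 1.35, SE 0.16, adjusted p = 0.00044). Ifih1, the RNA sensor MDA5, went from 17.4, 18.4 and 19.2 CPM to 30.9, 39.4 and 30.4 CPM. It was highest in HKO FFD replicate 2. Bst2, which tethers virions to the cell, stood at a log2 fold change of 0.77 (SE 0.13) and the interferon factor gene Irf7 at 0.77 (SE 0.13).

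Markers of immune and stromal cells gave few calls. None of 8 MHC class II genes, 18 lymphocyte and dendritic cell markers, 14 chemokine genes, 2 neutrophil markers, 24 acute phase genes and 18 endothelial markers passed the threshold of edgeR's test. At an unadjusted p under 0.05 the same lists held 1, 4, 1, 0, 3 and 4 genes, and DESeq2 called 2 endothelial markers lower and 0 other genes of these lists. The median log2 fold change of the MHC class II genes was 0.37 with all libraries and 0.91 without chow mouse 2, when 3 of the genes were called higher. H2-Ab1, for example, had 13.8, 34.8 and 20.4 CPM on chow and 38.9, 27.2 and 26.2 CPM on FFD, with the chow value of replicate 2 inside the FFD range. Of 15 Kupffer cell markers 1 rose, the lectin gene Clec4f at a log2 fold change of 0.38 (SE 0.11), a call that ended without chow mouse 1, chow mouse 2, chow mouse 3, FFD mouse 1, FFD mouse 2 or FFD mouse 3 (adjusted p = 0.066, 0.1, 0.12, 0.1, 0.095 and 0.1, in that order) and with a replicate block (adjusted p = 0.066). Their summed level was 784, 749 and 737 CPM on chow and 865, 781 and 791 CPM on FFD. Of 17 markers of lipid-associated macrophages 3 rose (1 without chow mouse 1, chow mouse 3 or FFD mouse 2) and 1 fell (0 without chow mouse 2). Among the rises was Apoe, which hepatocytes also make, at a log2 fold change of 0.49 (SE 0.10). The summed level of the list was 18900, 20140 and 19430 CPM on chow and 28080, 27550 and 26020 CPM on FFD, of which Apoe alone gave 18196, 19315 and 18728 CPM and 27146, 26620 and 25151 CPM. Trem2, the receptor that defines these macrophages, singled out after its values were seen, had 0.539, 0.996 and 0.65 CPM on chow and 2.22, 2.26 and 0.692 CPM on FFD and did not pass (adjusted p = 0.15), but did without FFD mouse 3 (adjusted p = 0.042). Of 30 stellate cell and fibrosis genes 1 fell and 0 rose, the falls numbering 0 without chow mouse 1, FFD mouse 1 or FFD mouse 2 and 2 without chow mouse 3. The collagen gene Col1a1, also singled out, had 4.93, 17.2 and 3.58 CPM on chow and 13.8, 19.1 and 3.66 CPM on FFD, with overlapping groups and HKO FFD replicate 3 at the level of the lowest chow livers.

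Some genes of hepatocytes near the central vein rose and some periportal genes fell. Of 18 genes of hepatocytes near the central vein 7 rose and 0 fell (median log2 fold change 0.25), and of 14 periportal genes 4 fell and 0 rose (median −0.23). Rgn, a calcium-binding enzyme, had 357, 442 and 375 CPM on chow and 878, 973 and 759 CPM on FFD, 2.22-fold higher. Lect2, a secreted liver protein, rose from 37, 37.1 and 32.8 CPM to 64.1, 89.9 and 61.1 CPM, and Cyp2e1, the ethanol-oxidising cytochrome P450, from 8671, 7175 and 7781 CPM to 13712, 12564 and 11932 CPM. All these groups were apart, with adjusted p of 0.0024, 0.0018 and 0.0036. Among the periportal genes the cadherin gene Cdh1 stood at a log2 fold change of −1.52 (SE 0.36), and its call ended without FFD mouse 1 or FFD mouse 2 (adjusted p = 0.061 and 0.051, in that order). The periportal count was 1 without FFD mouse 1 or FFD mouse 2 and 2 without chow mouse 1, chow mouse 3 or FFD mouse 3, and the pericentral count 4 without FFD mouse 2.

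Amino acid breakdown and urea cycle genes were more often lower than higher, with 8 falls and 2 rises among 31. Sdsl, a serine dehydratase, had 32.4, 24.7 and 32.2 CPM on chow and 13, 12.6 and 15 CPM on FFD, 2.19-fold lower. Asl, the argininosuccinate lyase of the urea cycle, went from 1499, 955 and 1522 CPM to 566, 692 and 652 CPM (log2 fold change −1.06, SE 0.19, adjusted p = 0.0038). Kynu stood at a log2 fold change of −0.67 (SE 0.12) and Haao, which acts next to it in tryptophan breakdown, rose to 0.48 (SE 0.09). The falls numbered 3 without FFD mouse 1, 4 without chow mouse 3 or FFD mouse 2 and 5 without chow mouse 1 or FFD mouse 3, and the rises 1 without chow mouse 3, FFD mouse 1 or FFD mouse 2. Among 15 gluconeogenesis genes 1 rose and 2 fell, a share of rises near the 7.46% higher over all genes tested, where 6.12% were lower. The rises numbered 0 without chow mouse 3 or FFD mouse 2 and 2 without chow mouse 2 or FFD mouse 3. The falls numbered 0 without FFD mouse 1 and 1 without chow mouse 1, chow mouse 3, FFD mouse 2 or FFD mouse 3.

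Drug metabolism genes rose more often than they fell. Of 28 P450 genes and their regulators 9 were higher and 2 lower, and the lower ones numbered 0 without chow mouse 1, chow mouse 3 or FFD mouse 3 and 1 without FFD mouse 1 or FFD mouse 2. Cyp2a22 had 0.308, 1.11 and 0.78 CPM on chow and 17.2, 42.6 and 15.5 CPM on FFD. It rose 32.4-fold (log2 fold change 5.02, SE 0.61, adjusted p = 0.00048), though reads of the alike Cyp2a genes can be shared out arbitrarily. Cyp2c29, an epoxygenase, rose from 380.0, 507 and 520.5 CPM to 961, 1184 and 999.9 CPM, and Cyp2c38 stood at a log2 fold change of 1.32 (SE 0.24). Conjugating enzymes were divided, with 7 of 33 higher (3 without FFD mouse 2 and 4 without chow mouse 1) and 5 lower. The glutathione transferase gene Gstt1 rose 2.21-fold and Gstp1, the pi-class enzyme, fell 2.9-fold, from 2088, 1902 and 2656 CPM to 632, 580.0 and 1079.9 CPM. In bile acid synthesis 2 of 19 genes rose and 2 fell, while over all genes tested 7.46% were higher and 6.12% lower. Cyp7b1, the oxysterol hydroxylase of the alternative route, had 350.3, 324 and 383 CPM on chow and 150.3, 115 and 157 CPM on FFD, 2.5-fold lower. Cyp7a1, the rate-limiting enzyme of the classic route, singled out after its values were seen, had 194, 37.4 and 248 CPM on chow and 283, 371 and 109 CPM on FFD, a spread that covers both groups (adjusted p = 0.51). The bile acid receptor gene Nr1h4 stood at a log2 fold change of 0.43 (SE 0.07). Of 12 transporters 3 rose and 0 fell, among them the uptake carrier gene Slco1b2 at a log2 fold change of 0.56 (SE 0.11) and the basolateral exporter gene Abcc3 at 0.61 (SE 0.11).

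Many male-biased liver genes fell. Their sex difference is known to come from the pattern of growth hormone release. Of 24 such genes 11 were lower and 0 higher, with a median log2 fold change of −0.75, and 7 to 10 were lower with a mouse left out, the 7 without HKO chow replicate 1 or HKO FFD replicate 3. Moxd1, a monooxygenase, had 131, 24.1 and 98.8 CPM on chow and 1.55, 3.39 and 2.2 CPM on FFD. This was the largest fall among the named genes, 35.3-fold (log2 fold change −5.14, SE 1.00, adjusted p = 0.006), and HKO chow replicate 2 had the lowest of the chow levels. Serpina1e, an alpha-1-antitrypsin gene, had 4052, 5184 and 5072 CPM on chow and 1006, 619 and 558 CPM on FFD, 6.55-fold lower. Susd4, a complement regulator, fell 2-fold, from 66, 48.8 and 59.4 CPM to 26.8, 29.7 and 30.5 CPM. Serpina1e belongs to a family of near-identical copies, so its single value is uncertain. Of 8 female-biased genes 2 rose and 2 fell, the falls numbering 0 without chow mouse 3, FFD mouse 1, FFD mouse 2 or FFD mouse 3 and 1 without chow mouse 1. Cyp2b9 had 1.08, 0.664 and 0 CPM on chow and 3.7, 7.01 and 6.35 CPM on FFD.

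Of 20 insulin and growth hormone signalling genes 4 rose and 0 fell, the rises numbering 2 without chow mouse 1, chow mouse 2, chow mouse 3 or FFD mouse 1. Several genes of this kind were high in a single FFD mouse. Cish, an immediate target of growth hormone through STAT5, had 2.46, 2.49 and 1.95 CPM on chow and 26.2, 3.39 and 4.56 CPM on FFD, far higher in HKO FFD replicate 1 than in any other liver. Socs2, a target of the same kind, had 68.1, 9.69 and 17.3 CPM on FFD and Onecut1, a hepatocyte factor, 92.5, 7.31 and 22 CPM, again with HKO FFD replicate 1 on top. The carrier gene Slc25a30 showed the same order, with 188, 42.6 and 79.7 CPM. Socs2 did not pass (adjusted p = 0.064), but did with no filter, by DESeq2 and without FFD mouse 2 (adjusted p = 1.2e-05, 0.049 and 0.029, in that order). The call of Cish (adjusted p = 0.039) ended without chow mouse 1, chow mouse 2, chow mouse 3 or FFD mouse 1 (adjusted p = 0.094, 0.084, 0.12 and 0.13, in that order) and with robust dispersions, with a replicate block or with the 6 HKO libraries alone (adjusted p = 0.096, 0.073 and 0.086). That of Onecut1 (adjusted p = 0.025) ended without chow mouse 1, chow mouse 2, chow mouse 3 or FFD mouse 1 (adjusted p = 0.059, 0.071, 0.088 and 0.11, in that order) and with robust dispersions or with the 6 HKO libraries alone (adjusted p = 0.078 and 0.064), and that of Slc25a30 (adjusted p = 0.03) without chow mouse 1, chow mouse 3 or FFD mouse 1 (adjusted p = 0.1, 0.12 and 0.14, in that order) and with robust dispersions, with a replicate block or with the 6 HKO libraries alone (adjusted p = 0.087, 0.069 and 0.066). The receptor gene Ghr did not share this pattern. It had 327, 342 and 325 CPM on chow and 572, 594 and 551 CPM on FFD, an even rise of 1.73-fold (adjusted p = 0.00082). Among secreted regulators 4 of 31 rose (1 without FFD mouse 2 and 2 without chow mouse 1, FFD mouse 1 or FFD mouse 3) and 2 fell (4 without chow mouse 2 or FFD mouse 3). The share of falls was near the 6.12% lower over all genes tested. Besides Enho, Angptl8, an insulin-induced inhibitor of lipoprotein lipase, fell from 71.1, 19.9 and 27.6 CPM to 9.02, 7.37 and 10.3 CPM (adjusted p = 0.0072). In the clock list 1 of 20 rose and 2 fell (1 without FFD mouse 2 or FFD mouse 3), a share near the 13.6% of all genes tested. Among them was Clock at a log2 fold change of −0.59 (SE 0.11). Of 16 metal genes 3 fell (1 without FFD mouse 1) and 1 rose (0 without chow mouse 3 or FFD mouse 2), a share of rises near the 7.46% higher over all genes tested. The zinc importer gene Slc39a4 had 48.3, 48.1 and 50.4 CPM on chow and 19.8, 16.5 and 17.9 CPM on FFD. In the cell cycle list 1 of 21 rose, E2f8 at a log2 fold change of 1.75 (SE 0.29), and 1 fell, a fall called only with HKO chow replicate 2 or no mouse left out. The called share of that list was below the 13.6% of all genes tested.

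Several of the largest changes were in genes best known from other cells. Themis, known for its part in T cell development, had 0.385, 0.388 and 0.26 CPM on chow and 17.8, 21.1 and 5.82 CPM on FFD, 42.1-fold higher (log2 fold change 5.40, SE 0.57, adjusted p = 0.0002). Stap1, an adaptor known from B cells, went from 0.077, 0.277 and 0.13 CPM to 3.1, 3.68 and 1.87 CPM. The summed level of 25 lymphocyte and dendritic cell markers was 22.3, 23.7 and 19.1 CPM on chow and 23.6, 17.2 and 12.6 CPM on FFD, so it did not rise with these genes. Osbpl3, an oxysterol-binding protein, had 1.15, 4.21 and 1.3 CPM on chow and 51.3, 49.9 and 20.3 CPM on FFD, and Nrep, first described in neurons, 1.39, 2.55 and 2.08 CPM and 50.4, 19.9 and 31.1 CPM. Adam11, a disintegrin without protease activity, rose 11.3-fold with little spread, from 17.6, 11 and 14.8 CPM to 152, 185 and 149.8 CPM (adjusted p = 1.3e-05). H2-Q1, a class I gene of a family of close copies, stood at a log2 fold change of 4.73 (SE 0.57), and Cyp21a1, the steroid 21-hydroxylase, at 3.43 (SE 0.40). Krt23, an acidic keratin, had 1.54, 1.99 and 1.69 CPM on chow and 12.1, 13.2 and 12.9 CPM on FFD, 7.24-fold higher.

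Adipose genes rose, but not those that define adipocytes. Of 6 tested adipose genes 4 were higher (2 without chow mouse 1, chow mouse 3, FFD mouse 1 or FFD mouse 2), and the summed level of all 13 was 180.1, 222 and 159 CPM on chow and 1814, 2503 and 1144 CPM on FFD. Car3, a carbonic anhydrase abundant in fat and liver, made most of this, with 112, 119 and 112 CPM on chow and 1549, 2269 and 1019 CPM on FFD, 14.1-fold higher (adjusted p = 0.0019). Cfd, the complement protease adipsin, had 0.154, 17 and 0.52 CPM on chow and 104, 72.4 and 27 CPM on FFD, and its call ended without chow mouse 1, chow mouse 3, FFD mouse 1 or FFD mouse 2 (adjusted p = 0.09, 0.11, 0.1 and 0.084, in that order) and with robust dispersions or with the 6 HKO libraries alone (adjusted p = 0.1 and 0.06). The summed level of 7 genes that define adipocytes such as Adipoq and Plin1 was 30.0, 43.5 and 22.4 CPM on chow and 35.5, 31.8 and 25.4 CPM on FFD. In the FFD libraries Adipoq had 1, 0 and 0 counts and Plin1 0, 0 and 0. The sum of those 7 genes thus did not rise with Car3, Cidea and Cfd. Most reads of Adipoq and Plin1 were in HKO chow replicate 2, on the low side of the comparison. The part of adipose tissue in these rises was not tested.

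Among the largest falls, several rested on the outlying chow library. Pdlim3, a muscle protein, had 0.616, 7.64 and 0.325 CPM on chow, with replicate 2 far above the others, and 0.269, 0 and 0.163 CPM on FFD. Cpe, a carboxypeptidase of secretory cells, had 1.23, 10.1 and 0.52 CPM on chow, and Igfbp6, a binding protein of insulin-like growth factors, 2, 5.76 and 0.65 CPM. The call of Pdlim3 (adjusted p = 0.025) ended without chow mouse 2, FFD mouse 1, FFD mouse 2 or FFD mouse 3 (adjusted p = 0.2, 0.059, 0.094 and 0.073, in that order) and with a replicate block (adjusted p = 0.057). That of Cpe (adjusted p = 0.024) ended without chow mouse 2, FFD mouse 1, FFD mouse 2 or FFD mouse 3 (adjusted p = 0.17, 0.06, 0.087 and 0.084, in that order) and with a replicate block (adjusted p = 0.051), and that of Igfbp6 (adjusted p = 0.02) without chow mouse 2, FFD mouse 2 or FFD mouse 3 (adjusted p = 0.094, 0.073 and 0.075, in that order). The part of cells other than hepatocytes in these differences was not tested. Slc35f1, a solute carrier with few reads, had 3, 33 and 19 counts on chow and 1, 0 and 1 on FFD. E030018B13Rik had 46.3, 7.86 and 25.2 CPM on chow and 3.97, 3.09 and 2.97 CPM on FFD (adjusted p = 0.0064). Long noncoding RNAs changed too, with 42 of 343 tested past the threshold, a share near the 13.6% of all genes. Those with the smallest p in each direction, singled out after their values were seen, were C730036E19Rik, with 8.08, 5.37 and 9.04 CPM on chow and 64.7, 95.4 and 47.2 CPM on FFD, and the imprinted Meg3, with 15.8, 10.6 and 12.5 CPM and 1.08, 0.713 and 1.02 CPM. Meg3 fell to a log2 fold change of −3.78 (SE 0.45 and adjusted p = 0.00047).

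The last comparison set this diet effect beside that of the WT control livers. The HKO and WT contrasts share no libraries. In WT livers 2121 genes passed (14.9%), 1177 higher (8.24%) and 944 lower (6.61%). The 1015 genes called in both with the same sign made up 52.3% of the HKO calls and 47.9% of the WT calls. Of the 1939 HKO calls, 1832 or 94.5% had the same sign in WT livers, against 70.9% of all genes tested, and Pearson's r of the log2 fold changes across genes was 0.572. Genes are not independent replicates, so r is given as a description. Only 2 genes were called in both with opposite signs, the complement gene C9 (log2 fold change −0.40 in HKO and 0.38 in WT) and Ppp2r2d, a phosphatase subunit (0.31 and −0.28). The HKO call of C9 ended without chow mouse 1, chow mouse 3, FFD mouse 1 or FFD mouse 2 (adjusted p = 0.069, 0.092, 0.1 and 0.074, in that order), and that of Ppp2r2d without chow mouse 1, chow mouse 3, FFD mouse 1 or FFD mouse 3 (adjusted p = 0.068, 0.11, 0.11 and 0.077, in that order). For Scd1 the log2 fold change was 4.36 (SE 0.29) in HKO and 3.97 (SE 0.29) in WT, and for Enho −3.57 (SE 0.25) and −2.30 (SE 0.23).

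A test of the difference itself found no gene past the threshold. By edgeR's quasi-likelihood test of the interaction, 0 of 14277 genes (0%) had an adjusted p under 0.05, the smallest being 0.23. At an unadjusted p under 0.05 there were 1293, DESeq2 called 95, and edgeR called 238 with no filter on low counts and 81 without HKO chow replicate 2, so the count of 0 depended on the tool, on the filter and on that library. Several lists nevertheless gave unlike counts in the genotypes, each without a member whose difference passed. Of the PPARalpha targets 10 rose and 2 fell in HKO, against 2 and 6 in WT, with median log2 fold changes of 0.41 and −0.30. Acot3 stood at a log2 fold change of 2.15 (SE 0.34) in HKO and −0.27 (SE 0.32) in WT, a difference of 2.42 (SE 0.46) with an adjusted p of 0.23. ER stress genes fell in 16 cases in HKO and 1 in WT, with median log2 fold changes of −1.02 and −0.48. Male-biased genes gave 11 falls and 0 rises in HKO, and 5 falls and 4 rises in WT. Interferon genes rose in 17 cases in HKO and 28 in WT, and MHC class II genes in 0 and 7. The HKO counts of these 2 lists depended on the mouse left out, from 9 to 21 and from 0 to 3. They were 21 and 3 without HKO chow replicate 2. For sterol synthesis the counts were 14 falls in HKO and 15 in WT.

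**Figure D4:**
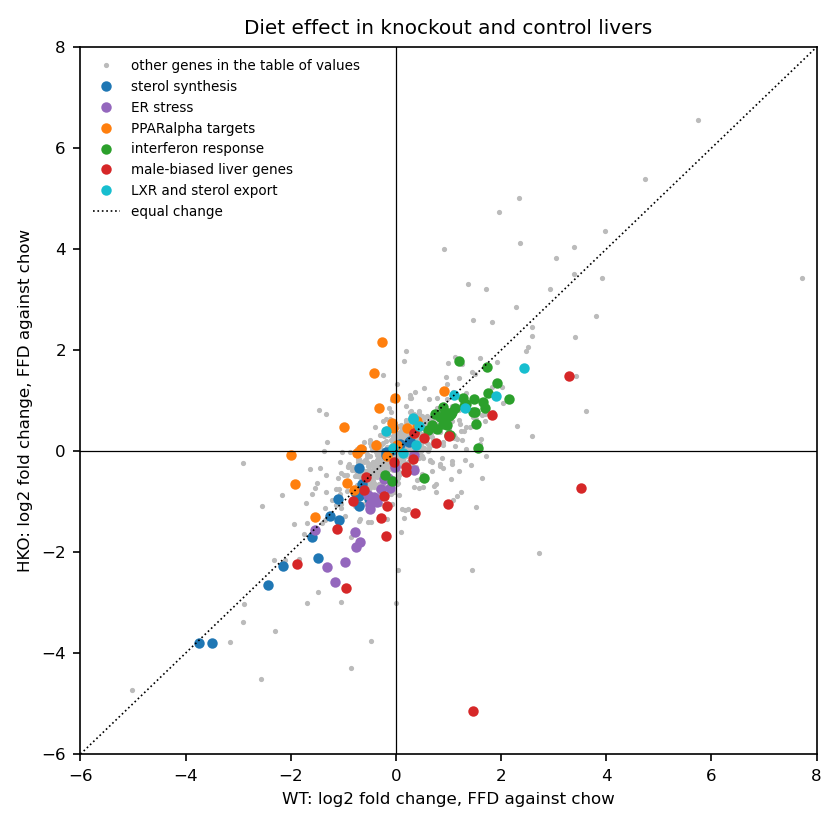
Log2 fold change, FFD against chow, in HKO livers (vertical axis) and in WT livers (horizontal axis) for the genes of the lists and the named genes, with 6 lists in colour. The dotted line marks equal change. Sterol synthesis and ER stress genes lie at the lower left, ER stress genes mostly below the line, several PPARalpha targets lie above 0 in HKO and below 0 in WT, and interferon genes lie at the upper right, mostly below the line.

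The genes with the smallest p for the difference all had an adjusted p of 0.23. Serpina1e stood at a log2 fold change of −2.71 (SE 0.20) in HKO and −0.95 (SE 0.19) in WT. C4a, a complement gene with a near-identical copy, had log2 fold changes of 1.48 (SE 0.24) and 3.41 (SE 0.26). Odf3b, named for a sperm tail protein, had 6.47, 6.64 and 6.44 CPM on chow and 14.2, 13.9 and 13.9 CPM on FFD in HKO livers, with hardly any spread, and a log2 fold change of 1.10 (SE 0.11) against 0.26 (SE 0.11) in WT. Tmed3, of ER to Golgi transport, stood at a log2 fold change of −1.14 (SE 0.16) and 0.11 (SE 0.16). Rictor, a subunit of the kinase complex mTORC2, stood at a log2 fold change of 0.17 (SE 0.09) and −0.49 (SE 0.09), and Desi2, a peptidase, at −0.02 (SE 0.13) and −1.03 (SE 0.13).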

How the data were processed

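RNA-seq was made from total RNA of 12 whole livers. Per the submitters' processing notes, reads were aligned with STAR to mm10 and counted per gene with featureCounts 1.5.0-p3. The deposited values are raw counts, and the strand setting and annotation release are not given in the sources used here. Gene names and coordinates are those deposited with the counts. GENCODE M21, used to find overlaps on the opposite strand, holds 54409 of the 54532 deposited gene IDs. It gives the same coordinates for 98.33% of those 54409.

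Genes passing filterByExpr were fitted with edgeR 4.0.16 (R 4.3.3) on all 12 libraries as 4 group means, with TMM scaling, the quasi-likelihood test and Benjamini-Hochberg adjustment within each contrast (threshold 0.05). The difference between diet effects is the interaction contrast. CPM are counts scaled to the library's TMM-adjusted total, and SE is that of the fitted log2 fold change. Depth was 12842187 to 24332663 counts. Precision rests on the spread between mice, with 3 a group and the spread estimated from all 12 libraries. For genes with few reads it rests on the counts as well. On simulated counts with the same library sizes, 31.3% of genes changed 1.5-fold, 55.2% changed 2-fold and 87.9% changed 4-fold were recovered, with 7 of 13855 unchanged genes called. Only 200 genes were changed there, against 1939 called in the data. Recovery after adjustment depends on that number, so these rates do not carry over to the data.

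Named genes are Slc25a34, Scd1 and Enho, the 12 largest changes each way among called protein-coding genes with at least 1 CPM and no overlap, up to 5 members of each of 54 lists by p, and the 6 smallest p of the difference. The members and lists were chosen with earlier results of these data known. Genes of the text outside this rule were chosen after their values were seen: Adipoq, C730036E19Rik, Calr, Canx, Col1a1, Cpt1a, Creld2, Cyp4a32, Cyp7a1, Ddit3, Derl3, Dnajc3, Fdps, Fgf21, Hmgcs1, Hsp90b1, Hspa5, Meg3, Plin1, Plin2, Ppara, Ppp2r2d, Scarb1, Trem2 and Xbp1. Alternatives were DESeq2 1.42.0, other scaling and filters, robust dispersions, a replicate block, the 6 libraries alone and leaving out each mouse. Promoters are RefSeq's, 250 bases before to 50 after each start. Some genes are not reported here.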

Additional observations from a re-analysis of the deposited data

How the results depend on the processing

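The count of calls in knockout livers moved most with the mouse left out. Leaving out 1 mouse gave 967 to 1848 called genes against 1939, with 589 to 995 higher and 378 to 853 lower. The lowest values came without HKO FFD replicate 2, when 49% of the 1939 were called again with the same sign, and 75.5% were without HKO chow replicate 2. Other settings gave 1763 to 2328 calls and shared 80.4% to 99.7% of them. The difference between the diet effects gave 0 genes by edgeR (1293 at an unadjusted p under 0.05), 95 by DESeq2, 238 with no filter and 1 with the replicate block. With 1 mouse left out it gave 0 to 81, the 81 without HKO chow replicate 2, and 1 without HKO FFD replicate 1. The cause was not tested. Of 145 genes with values, 128 were called and 111 of these under every alternative.

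No pairing of the mice by replicate number was visible: deviations of same-numbered FFD and chow libraries correlated at −0.0718, −0.072 and 0.0798. Such values cannot show that the mice were unpaired. The fit with the replicate block called 1763 genes.

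Uncalled genes that changed sign were Acta2 (−2.35 with all mice, −2.87 to 0.30 with a mouse left out), Col1a1 (0.47 with all mice, −0.02 to 1.51 with a mouse left out), Desi2 (−0.02 with all mice, −0.11 to 0.13 with a mouse left out), Fgf21 (−0.08 with all mice, −0.56 to 1.94 with a mouse left out, 0.01 with the replicate block), Krt19 (−1.42 with all mice, −1.88 to 0.53 with a mouse left out) and Plin2 (−0.06 with all mice, −0.25 to 0.34 with a mouse left out), as log2 fold changes. In the simulation, where 200 genes were changed, 31.3% of those changed 1.5-fold were recovered, a rate that does not carry over to the data.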

Other observations

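Complement and coagulation genes were called in knockout livers at about the share of all genes tested, which was 13.6%. Of 30 tested members 2 were higher on FFD and 2 lower, with 0 without chow mouse 1, chow mouse 3, FFD mouse 1 or FFD mouse 2 among the rises and 1 without chow mouse 1, chow mouse 3 or FFD mouse 2 among the falls. C8b, a chain of the membrane attack complex, had 321, 328 and 316 CPM on chow and 215, 135 and 168 CPM on FFD and fell 1.86-fold (log2 fold change −0.90, SE 0.16, adjusted p = 0.0037 in the edgeR fit). Hepatocyte identity genes gave 2 rises and 2 falls among 23, with 1 without chow mouse 1, chow mouse 2, chow mouse 3 or FFD mouse 1 for the rises and 0 without FFD mouse 2 and 1 without chow mouse 1, chow mouse 3 or FFD mouse 3 for the falls. Immediate early genes gave 0 rises and 1 fall among 18, a fall called with all mice or without HKO chow replicate 2.

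The lists of bile duct, gut, pancreas and blood markers were short, so the called share of each rests on very few genes. Over all genes tested the share was 13.6%. Of 11 cholangiocyte markers 1 fell, with 2 without HKO chow replicate 1. This was Sox9, the duct and progenitor factor that is also 1 of the periportal genes, with 8.93, 8.69 and 8.91 CPM on chow and 4.11, 4.16 and 4.6 CPM on FFD, a 2.05-fold fall with hardly any spread (adjusted p = 0.0082). The summed level of the 13 cholangiocyte genes was 298, 496 and 314 CPM on chow and 461, 438 and 414 CPM on FFD. Of the tested members 9 had negative log2 fold changes, with a median of −0.56, or 0.02 without chow mouse 2. Of 6 gallbladder and gut genes the rise was Krt23, given above. The 1 tested pancreas gene, the elastase gene Cela1, went from 10.1, 9.13 and 9.56 CPM to 5.32, 5.94 and 4.56 CPM (adjusted p = 0.0091), and 10 of the 18 pancreas genes had 0 counts in all 6 libraries. Of 7 blood cell genes 1 rose (0 without chow mouse 1, chow mouse 3, FFD mouse 1 or FFD mouse 2) and 1 fell, Bpgm, which makes the red cell effector of haemoglobin, at a log2 fold change of −0.48 (SE 0.10).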
